A study of Mus musculus with 32 samples.

Results

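The genes described here are 10 listed genes of kidney mural cells, the smooth muscle cells and pericytes that wrap vessels and, as smooth muscle, the ureter and renal pelvis. They are Acta2, Tagln, Myh11, Cnn1 and Actg2 of the smooth muscle contractile apparatus, Des of the intermediate filaments, and Cspg4, Rgs5, Pdgfra and Pdgfrb of pericytes and stromal cells. They were chosen by name and matched through their Ensembl identifiers, and all 10 were found among the 54417 genes held in common by 4 tables of gene counts from mouse embryonic kidney.

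Foxd1-expressing stromal progenitors give rise to the mural cells of renal arterioles, mesangial cells, pericytes and interstitial cells, while Six2-expressing progenitors of the cap mesenchyme form the nephron epithelium. Serum response factor, with its partner myocardin or the related MRTF proteins, binds the CArG box and drives genes of the smooth muscle contractile apparatus. PDGF-B made by endothelium acts on the receptor Pdgfrb to recruit pericytes and mesangial cells, and Pdgfra marks fibroblast-like stroma.

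The study asked how tumor-derived mutations of the YEATS domain of ENL, a reader of acetylated histones, change kidney development when they are switched on in either of these lineages. The mutants carried 1 mutant and 1 wildtype Enl allele after Cre recombination, EnlT1/+ with a small insertion or EnlT3/+ with a small deletion and substitution, and every ENL WT control was a Cre-bearing Enl+/+ embryo. The Six2 groups carried the Six2-TGCtg/+ transgene, a BAC that adds a Cre fused to GFP, and the Foxd1 groups carried Foxd1GC/+, a Cre knock-in that removes Foxd1 function from that allele in controls and mutants alike. Whole kidneys at E18.5 gave, with the Six2 driver, 2 libraries for each of the WT, T1 and T3 genotypes and, with the Foxd1 driver, 3 for each of WT and T1. Cells sorted for a Cre-activated tdTomato reporter (tdT+), which marks cells that have ever expressed the Cre and their descendants, gave 3 Six2-ENL WT and 3 Six2-ENL T1 libraries at each of E14.5 and E18.5, and 4 Foxd1-ENL WT and 4 Foxd1-ENL T1 libraries at E18.5. Gene counts do not show the inserted or deleted Enl bases, so they cannot check the genotype.

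The count totals ran from 67137194 to 157266455 reads for whole kidneys, from 76510702 to 137888792 for sorted Six2 libraries and from 2557443 to 3508381 for sorted Foxd1 libraries. Levels are given as CPM, a gene's share of a library's counts scaled to a fixed total. Six2 averaged 880 CPM at E14.5 and 208 CPM at E18.5 in sorted Six2-ENL WT cells, against 15.4 CPM in sorted Foxd1-ENL WT cells. The 8 stromal markers summed to 540 to 964 CPM in sorted Six2-ENL WT cells and to 7974 to 11210 CPM in sorted Foxd1-ENL WT cells. Skeletal muscle markers stood apart in Six2-ENL WT whole kidney replicate 2 (54.9 CPM summed over 8 genes) and Foxd1-ENL T1 whole kidney replicate 1 (111.9 CPM), with 5.33 to 23.7 CPM in the other whole kidneys. Mitochondrial transcripts made up 2.89% to 3.39% of counts in Foxd1-ENL WT whole kidneys and 1.18% to 1.55% in Foxd1-ENL T1 whole kidneys. In the 2 Six2-ENL WT whole kidneys they made up 2.73% and 6.35%, with 3.89% to 4.31% in T1 and 4.63% to 5.22% in T3. In bulk RNA, fewer cells of a type and less RNA per cell cannot be told apart.

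The Tagln values need a limit of their own. Tagln (chr9:45929619-45936058 in mm10, the build of all gene positions given here) encodes transgelin, an actin-binding protein of smooth muscle, and 67.9% of its exon bases overlap exons of Pcsk7 or the gene model Gm48529, so reads there cannot be given to 1 gene without a rule that breaks the tie. Tagln averaged 262 CPM in sorted Foxd1-ENL WT cells but only 1.21 CPM in Foxd1-ENL WT and 10.6 CPM in Six2-ENL WT whole kidneys, whereas Pcsk7 was at 23.3, 41.1 and 32.1 CPM in the same groups. The table of sorted Foxd1 libraries also lists 55471 genes where the other tables list 54752. Tagln is therefore compared only within a table, and its level across tables is not read. For the other 9 genes the share of 75-base windows of their transcripts that recur in another gene's transcripts was 0% for 7 genes, 3.95% for Des and 4.05% for Pdgfra, and Acta2 and Actg2, a pair of closely related actins, shared no 50-base window with each other.

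The promoters of Acta2, Cnn1 and Des are shown because these genes went with the contractile group (Acta2, Cnn1) or against it (Des) in the comparisons that follow. Each run covers 250 bases before and 50 bases after the gene start in RefSeq (GRCm38.p6), 5′ to 3′ on the gene's strand, in lower case, with capitals for CArG boxes that have 1 G or C among their 6 central positions, searched on both strands, and for the letters TATAA, searched on the gene's strand. The windows are chr19:34255324-34255623 on the minus strand for Acta2, chr9:22099003-22099302 on the plus strand for Cnn1 and chr1:75360042-75360341 on the plus strand for Des. For each of these genes the RefSeq start differs from the start of the gene span given elsewhere in this text. For Acta2 it lies inside that span. Positions below count from the RefSeq start.
Acta2: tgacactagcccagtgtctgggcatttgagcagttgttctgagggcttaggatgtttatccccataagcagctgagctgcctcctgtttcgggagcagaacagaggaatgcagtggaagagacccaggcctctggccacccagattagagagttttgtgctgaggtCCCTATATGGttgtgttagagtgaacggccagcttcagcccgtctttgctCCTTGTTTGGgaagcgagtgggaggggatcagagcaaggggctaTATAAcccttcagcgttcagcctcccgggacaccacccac
Cnn1: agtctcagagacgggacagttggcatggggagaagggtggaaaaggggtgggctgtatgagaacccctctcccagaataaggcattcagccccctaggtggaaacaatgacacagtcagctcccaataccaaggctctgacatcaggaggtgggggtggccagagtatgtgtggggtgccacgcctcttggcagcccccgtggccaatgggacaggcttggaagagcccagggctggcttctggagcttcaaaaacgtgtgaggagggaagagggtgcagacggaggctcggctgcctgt
Des: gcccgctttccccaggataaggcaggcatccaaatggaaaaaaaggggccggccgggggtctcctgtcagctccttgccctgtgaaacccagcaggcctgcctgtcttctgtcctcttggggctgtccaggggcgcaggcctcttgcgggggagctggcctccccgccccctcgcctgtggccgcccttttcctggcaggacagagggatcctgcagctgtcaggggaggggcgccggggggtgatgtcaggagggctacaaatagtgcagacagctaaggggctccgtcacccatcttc
The Acta2 window held 2 such boxes, starting at positions -84 and -34 from the gene start, and TATAA at position 10. The Cnn1 and Des windows held neither. Among the 6 windows searched (those of Acta2, Cnn1, Des, Cspg4, Rgs5 and Pdgfra), only Acta2 had a CArG box of this kind, and the Pdgfra window held TATAA at position 44. No windows of Tagln, Myh11, Actg2 and Pdgfrb were searched, so nothing is said of their boxes. Across all 32851 promoter windows of this length, 8.50% held a CArG box with 1 G or C and 17.5% held TATAA. The strict CArG box, with A or T at all 6 central positions, was in 1.63% of windows and in none of these 6. A match of letters is a description of the window and not evidence of binding.

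In wildtype sorted cells at E18.5 the listed genes were, with 1 exception, higher in the Foxd1 lineage than in the Six2 lineage. A gene was called here at an adjusted p under 0.01 and a change over 2-fold (edgeR quasi-likelihood test, Benjamini-Hochberg adjustment over all genes tested). By that rule 9 of the 10 genes, Tagln among them, were higher in Foxd1-lineage than in Six2-lineage cells. Among all genes tested, 27.2% were called higher and 28.2% lower. Acta2, the smooth muscle α-actin of thin filaments (chr19:34241090-34255590), stood at 1139, 1106, 1153 and 1042 CPM in the 4 Foxd1-ENL WT libraries and at 41.5, 39.7 and 26.7 CPM in the 3 Six2-ENL WT libraries. Pdgfrb, the receptor for PDGF-B, stood at 573, 499, 502 and 512 CPM against 46.5, 30.6 and 28.0 CPM. The lineages did not overlap for either gene, with log2 fold changes of 5.05 ± 0.15 (SE) for Acta2 and 4.00 ± 0.13 for Pdgfrb. Called log2 fold changes ran from 1.22 for Cspg4 to 6.05 for Tagln, the latter set across 2 tables and therefore uncertain. The median of the 10 was 3.95, beside -0.10 for all genes tested. Of the lists fixed for the pathway, 12 of 18 contractile partners were higher and 1 lower (median 1.55), 9 of 12 pericyte and vascular mural genes higher and 2 lower (3.73), 6 of 16 regulators higher and 4 lower (0.91), 5 of 6 mesangial and juxtaglomerular genes higher (3.85), and 1 of 4 PDGF ligands higher and 3 lower (-1.66). Markers of other cells were also higher in sorted Foxd1 cells, with 7 of 7 endothelial genes (median 2.55) and 5 of 6 macrophage genes (4.52) called. What part such cells had in the values of the listed genes was not tested. Lineage, Cre allele, read length, library depth and count table coincide in this comparison and cannot be told apart.

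Desmin was the exception. Des, the intermediate filament protein of muscle (chr1:75360329-75368579), measured 46.8, 46.8, 39.1 and 42.8 CPM in sorted Foxd1-ENL WT cells and 55.2, 52.2 and 61.1 CPM in sorted Six2-ENL WT cells at E18.5. Every Six2 library was above every Foxd1 library, but the log2 difference of -0.25 (95% interval -0.47 to -0.03) did not meet the rule. The highest Des of any group was in Six2-ENL WT cells at E14.5, at 214, 216 and 174 CPM. Des was thus measured in sorted Foxd1 cells but not called higher there than in the Six2 lineage.

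Per kilobase of exon, Acta2 was the most abundant listed gene in sorted Foxd1-ENL WT cells, at 505.5 ± 22.5 CPM per kb (SD, n = 4). Tagln, with its overlap, was at 132 CPM per kb. Pdgfrb followed at 95.2 CPM per kb, then Rgs5 at 41.2 ± 8.46, Pdgfra at 36.5 ± 2.59, Cnn1 at 15.8, Actg2 at 15.5, Des at 11.7, Cspg4 at 11.1 and Myh11 at 5.89. Rgs5 and Pdgfra, Cnn1 and Actg2, and Des and Cspg4 were closer to each other than their spread over libraries. Myh11, the smooth muscle myosin heavy chain and the most specific of the contractile markers, was higher in whole kidneys than in the sorted stroma: 86.4, 92.9 and 81.0 CPM in Foxd1-ENL WT whole kidneys against 57.3, 53.3, 30.9 and 37.5 CPM in sorted Foxd1-ENL WT cells. Whole kidneys and sorted cells were made into libraries with different kits, so these levels are set side by side without a test.

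**Figure D1:**
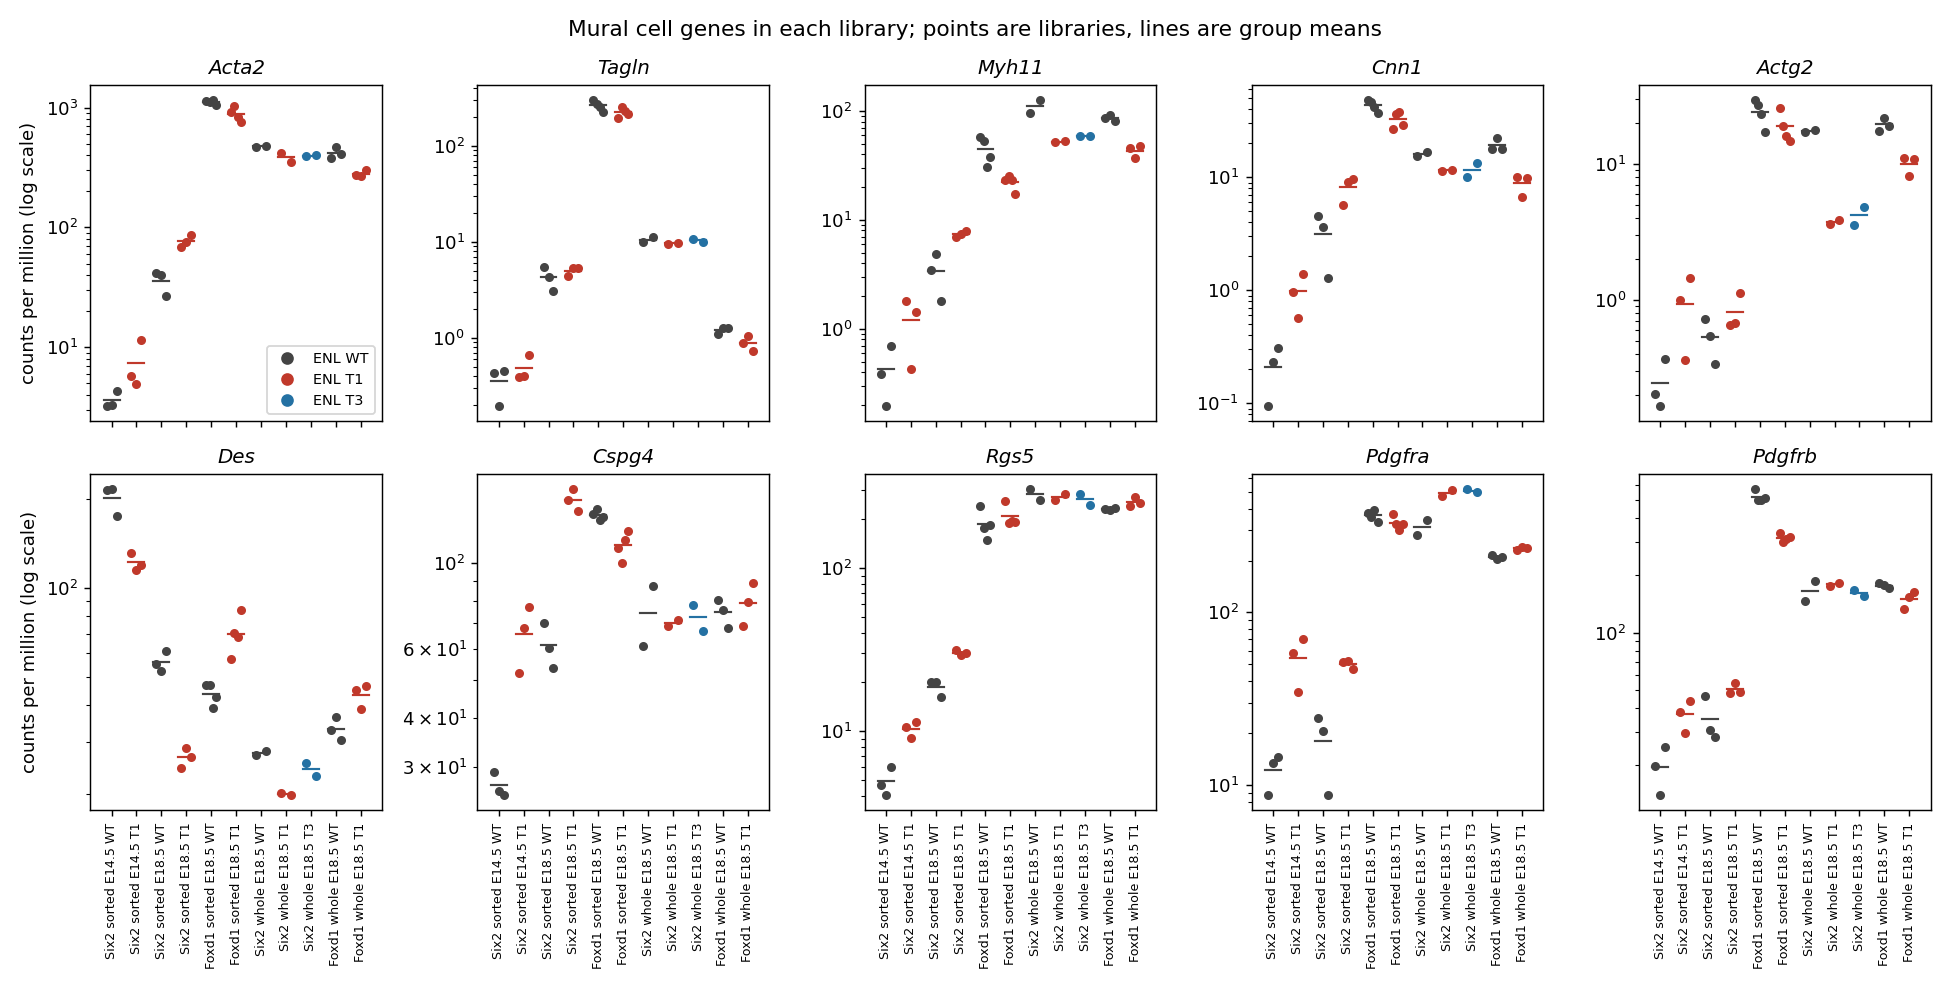
CPM (log axis) of the 10 genes in all 32 libraries, by lineage, material, stage and genotype, each point 1 library and each line a group mean. Leaving out Tagln, whose levels are not read across tables, the group means of the contractile and pericyte genes are lowest in Six2-ENL WT cells at E14.5 and highest in sorted Foxd1 cells or whole kidneys, except Cspg4, which is highest in sorted Six2-ENL T1 cells at E18.5 (145.0 CPM), while Des is highest in Six2-ENL WT cells at E14.5 (174 to 216 CPM).

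ENL T1 in the stromal lineage was followed in the sorted tdT+ cells themselves. A mutant effect was called at an adjusted p under 0.05 and a change over 1.5-fold. In sorted Foxd1 cells at E18.5, 2 of the 10 genes fell and 1 rose, where 2.18% of all genes tested were called lower and 3.63% higher. The median log2 fold change of the 10 was -0.29, beside -0.004 for all genes tested.

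Pdgfrb fell most evenly. Its level was 573, 499, 502 and 512 CPM in the 4 Foxd1-ENL WT libraries and 335, 301, 310 and 321 CPM in the 4 Foxd1-ENL T1 libraries, with no overlap. The log2 fold change was -0.72 ± 0.07, a fold of 0.608 (adjusted p = 5.56e-07). Myh11 (chr16:14194535-14291372) fell from 57.3, 53.3, 30.9 and 37.5 CPM to 23.4, 25.3, 23.3 and 17.4 CPM. The groups did not overlap, although the gap between them was smaller than the range of the controls, and the log2 fold change was -1.02 ± 0.17 (adjusted p = 0.000427). Des went the other way, from 46.8, 46.8, 39.1 and 42.8 CPM to 57.6, 70.5, 68.1 and 84.1 CPM. All 4 T1 libraries were above all 4 controls (log2 0.68 ± 0.11, adjusted p = 0.000341), but the call was lost without T1 replicate 4.

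The other 7 genes did not meet the rule. Acta2 had a log2 fold change of -0.33 (adjusted p = 0.0108), Cnn1, calponin, which binds actin and restrains myosin, had -0.41 (adjusted p = 0.0376), and Cspg4, the NG2 proteoglycan of pericytes, had -0.25 (adjusted p = 0.0362). Actg2, the γ-actin of visceral smooth muscle, had a log2 fold change of -0.37 (95% interval -0.75 to 0.01). Rgs5, a regulator of G-protein signalling typical of pericytes, had 0.15 (-0.09 to 0.39) and Pdgfra had -0.14 (-0.30 to 0.02). Tagln had -0.23 (-0.41 to -0.04) with an adjusted p of 0.117. Macrophage markers, 6 genes in all, summed to 84.2 to 222 CPM in controls and 220 to 303 CPM in T1 libraries, with 4 of 6 higher. The 7 urothelial markers summed to 6.78 to 16.8 CPM in controls (median 12.4) and 2.90 to 10.97 CPM in T1 libraries (median 4.18). Nephron markers summed to 279 to 598 CPM in controls, the highest being WT replicate 1, and 262 to 294 CPM in T1 libraries, with 3 of 7 tested genes lower. The part of these markers in the results was not tested.

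Genes around the listed ones moved in the same sorted cells. Of 6 mesangial and juxtaglomerular genes, 3 fell: Ren1, renin, by 3.83 on the log2 scale, Akr1b7, an aldo-keto reductase of renin cells, by 1.52, and Gja5, connexin 40, by 1.2. Of 11 pericyte and vascular mural genes tested of 13 listed, 4 fell and none rose, namely Angpt1, a ligand of the endothelial receptor Tek (-1.0), Anpep, an aminopeptidase also of proximal tubule (-0.88), Kcnj8 (-0.86) and Abcc9 (-0.59), the subunits of 1 potassium channel. Of 16 regulators, Tcf21, a transcription factor of stroma and podocytes, fell by 0.99 and Gata6, a GATA factor, by 0.86. Of 18 contractile partners, only Hspb6, a small heat shock protein, was called, and it rose (0.98). None of the 4 PDGF ligands was called. The list medians were -0.88, 0.19, -0.18, 0.24 and 0.09 in that order.

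In whole kidneys with ENL T1 in the stroma, 4 of the 10 genes fell and none rose, where 7.53% of all genes tested were called lower and 2.65% higher. All 4 belong to the smooth muscle contractile apparatus. Myh11 fell from 86.4, 92.9 and 81.0 CPM to 45.6, 36.9 and 47.6 CPM (log2 -1.01 ± 0.09). Cnn1 (chr9:22099216-22109630) fell from 17.9, 22.1 and 17.8 CPM to 10.1, 6.72 and 9.91 CPM (log2 -1.13 ± 0.14). Each of the 3 mutants was below each of the 3 controls for both genes.

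Actg2 (chr6:83512905-83536265) fell from 17.5, 21.9 and 19.1 CPM to 10.99, 8.16 and 10.89 CPM (log2 -0.98 ± 0.12). Acta2 fell from 381, 467 and 412 CPM to 272, 268 and 300 CPM (log2 -0.60 ± 0.07, adjusted p = 4.9e-05). The groups did not overlap for either actin, but the Acta2 value lies near the 1.5-fold limit, and it no longer passed it without T1 replicate 1, T1 replicate 2 or WT replicate 2.

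None of the pericyte and stromal members met the rule in the same kidneys. Pdgfrb had a log2 fold change of -0.25 (95% interval -0.39 to -0.10), Pdgfra 0.15 (0.05 to 0.26), Rgs5 0.13 (0.01 to 0.25) and Cspg4 0.07 (-0.11 to 0.24). Des had 0.37 (adjusted p = 0.00383), under the fold rule and in the direction of the sorted cells. Tagln, at 1.11 to 1.26 CPM in controls, had -0.46 (adjusted p = 0.146). The 10 genes had a median of -0.35, beside -0.003 for all genes tested.

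Of the lists, 3 of 6 mesangial and juxtaglomerular genes fell in these whole kidneys (Ren1 by 4.27, Akr1b7 by 2.51 and Gja5 by 0.94 on the log2 scale), and 2 of 13 pericyte genes fell (Anpep by 1.27 and Angpt1 by 0.64). Gata6 fell by 0.77 and was the 1 regulator of 16 called, and none of 18 contractile partners or 4 PDGF ligands was called. The medians of these lists were -0.75, -0.08, 0.01, -0.17 and -0.09. The 7 urothelial markers, which mark the lining that ureteral smooth muscle surrounds, summed to 81.3 to 98.3 CPM in controls and 71.3 to 73.0 CPM in mutants. Markers of the ureteric tree summed to 796 to 936 CPM in controls and 645 to 715 CPM in mutants, nephron markers to 2786 to 2815 CPM and 1452 to 1835 CPM, and the stromal sum was 5500 to 6911 against 6874 to 7168 CPM. The part of these shifts, and of the lower mitochondrial share, in the fall of the contractile genes was not tested.

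In whole kidneys with a mutant ENL in the nephrogenic lineage, mural cells do not carry the mutant allele by the design of the cross. There 2 of the 5 contractile genes, Actg2 and Myh11, were called lower. Both mutants share the same 2 Six2-ENL WT kidneys. Against these, 2 of 10 genes fell and 1 rose in Six2-ENL T1 (4.88% of all genes tested were called lower and 2.88% higher), and 2 fell and 1 rose in Six2-ENL T3 (5.28% lower and 4.34% higher). Actg2 measured 17.0 and 17.6 CPM in WT, 3.64 and 3.85 CPM in T1 and 3.59 and 4.84 CPM in T3. Its log2 fold change was -2.28 ± 0.14 in T1 (adjusted p = 9.08e-05) and -2.11 ± 0.14 in T3. Myh11 measured 96.1 and 125.6 CPM in WT, 51.8 and 53.1 CPM in T1 and 59.6 and 59.3 CPM in T3. Both mutants lay far below both controls for these genes, with Myh11 at -1.15 ± 0.11 in T1 and -0.97 ± 0.11 in T3.

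Pdgfra (chr5:75152292-75198215) was higher, at 281 and 341 CPM in WT, 471 and 512 CPM in T1 and 521 and 496 CPM in T3. No mutant library overlapped a control, and the log2 fold changes were 0.59 ± 0.11 in T1 and 0.64 ± 0.11 in T3, just past the 1.5-fold limit. The T1 call was lost without WT replicate 1 or T1 replicate 2, and the T3 call without WT replicate 1. The other members were not called in either mutant. Acta2 had -0.38 in T1 and -0.33 in T3 (adjusted p = 0.0211 and 0.0307), under the fold rule. Cnn1, also under it, had -0.55 and -0.54 (adjusted p = 0.0266 and 0.0263). Des had -0.54 and -0.26 (adjusted p = 0.00447 and 0.0699). Pdgfrb (0.03 and -0.11), Rgs5 (-0.13 and -0.17), Cspg4 (-0.16 and -0.11) and Tagln (-0.21 and -0.10) had 95% intervals that held 0. The median of the 10 was -0.29 in T1 and -0.22 in T3, beside -0.01 and -0.002 for all genes tested.

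Of the lists in T1, 3 of 6 mesangial and juxtaglomerular genes fell (Ren1 by 1.24, Gja5 by 0.97 and Akr1b7 by 0.89 on the log2 scale), of 13 pericyte genes 1 fell (Anpep by 2.78), and of 16 regulators 1 rose (Hey2, a Notch target, 0.62). In T3, Ren1 fell by 1.19, Gja5 by 0.96 and Anpep by 2.86, Foxc1, a forkhead factor, fell by 0.65, and Tcf21 (0.69) and Ppp1r14a, an inhibitor of myosin phosphatase (1.2), rose. No PDGF ligand was called in either mutant. The list medians were -0.61 (mesangial and juxtaglomerular), 0.16 (pericyte), 0.12 (regulators), -0.10 (contractile partners) and 0.05 (ligands) in T1 and -0.46, 0.22, 0.25, -0.06 and 0.07 in T3. The urothelial sum was 78.9 to 83.9 CPM in WT, 47.2 to 51.1 CPM in T1 and 51.5 to 54.4 CPM in T3, and 5 of its 7 genes fell in each mutant. Cardiac muscle markers summed to 8.40 to 12.2 CPM in WT and 0.90 to 1.69 CPM across the mutants, and 5 of 6 macrophage markers rose in each mutant. The nephron markers summed to 2492 to 2632 CPM in WT and 581 to 701 CPM across the mutants, and the endothelial sum of 7 genes was 969 to 1047 CPM across all 3 genotypes. What part fewer nephrons or less ureteral and pelvic tissue in the sample had in these values was not tested. The part of the unlike mitochondrial shares of the WT kidneys was not tested either.

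**Figure D2:**
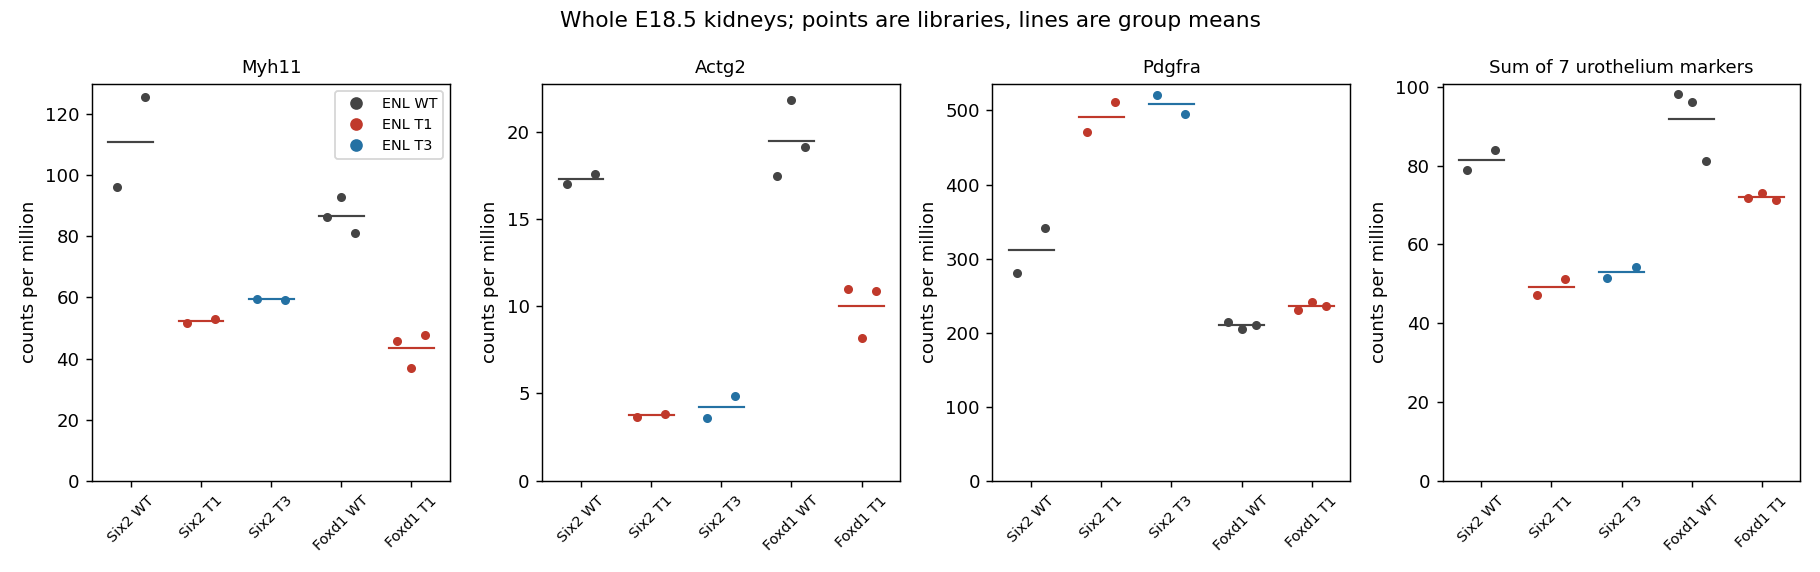
CPM of Myh11, Actg2 and Pdgfra and the sum of 7 urothelial markers in the 12 whole-kidney libraries, each point 1 library and each line a group mean. Actg2 is at 3.59 to 4.84 CPM in Six2 mutants against 17.0 and 17.6 CPM in their controls, and the urothelial sum is also lower in the same mutants.

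In sorted Six2-lineage cells the called contractile genes rose, from low levels, where those called in the Six2 whole kidneys fell. Pdgfra rose in both materials, and Des was lower in both, though not called in the whole kidneys. At E14.5, 5 of the 10 genes rose and 1 fell in Six2-ENL T1, where 4.11% of all genes tested were called higher and 2.28% lower. At E18.5, 6 rose and 1 fell, where 6.14% were called higher and 5.54% lower. The medians of the 10 were 1.14 and 0.80 on the log2 scale, beside 0.0035 and 0.02 for all genes tested.

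Cspg4 (chr9:56865033-56899870) rose at both stages. It measured 29.1, 26.1 and 25.5 CPM in WT and 52.3, 68.2 and 76.9 CPM in T1 cells at E14.5, and 70.1, 60.4 and 53.8 CPM in WT and 145.1, 154.7 and 135.4 CPM in T1 cells at E18.5. The genotypes did not overlap at either stage, with log2 fold changes of 1.25 ± 0.13 and 1.15 ± 0.08 (adjusted p = 4.6e-07 at E18.5). The Cspg4 level of sorted Six2-ENL T1 cells at E18.5 stood beside 128.6 to 137.3 CPM in sorted Foxd1-ENL WT cells, a difference not tested, while Pdgfrb in the same libraries was at 47.9 to 53.9 CPM against 499 to 573 CPM.

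Pdgfra rose as well. It measured 8.79, 13.4 and 14.49 CPM in WT and 58.4, 34.5 and 70.2 CPM in T1 cells at E14.5, and 24.4, 20.6 and 8.80 CPM in WT and 51.6, 52.4 and 46.9 CPM in T1 cells at E18.5. All T1 libraries were above all controls of their stage (log2 2.11 ± 0.27 and 1.40 ± 0.25). Rgs5 (chr1:169655501-169695813) rose by 1.03 at E14.5 and 0.60 at E18.5 on the log2 scale, the latter just past the 1.5-fold limit and lost without T1 replicate 1, T1 replicate 3 or WT replicate 3. Pdgfrb rose at E14.5 (0.88 ± 0.21, adjusted p = 0.0259), a call lost without T1 replicate 1, T1 replicate 3, WT replicate 1 or WT replicate 2, and had 0.43 (adjusted p = 0.0487), under the fold rule, at E18.5.

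Among contractile genes, Acta2 measured 41.5, 39.7 and 26.7 CPM in WT and 68.4, 75.3 and 86.8 CPM in T1 cells at E18.5, with no overlap (log2 1.00 ± 0.14). Myh11 rose from 3.46, 4.86 and 1.80 CPM to 6.98, 7.37 and 7.92 CPM (1.04 ± 0.26) and Cnn1 from 4.52, 3.64 and 1.28 CPM to 5.75, 9.09 and 9.62 CPM (1.28 ± 0.33), the last not called by DESeq2 or without T1 replicate 2 or 3. The genotypes were again apart, though WT replicate 3 was the lowest library for all 3 genes. At E14.5 only Cnn1 of this group was called, from 0.09, 0.23 and 0.31 CPM to 0.98, 0.57 and 1.40 CPM (log2 2.17 ± 0.49). Acta2 (1.00, adjusted p = 0.0666), Actg2 (1.89, adjusted p = 0.0532) and Myh11 (1.47, adjusted p = 0.155) did not pass at E14.5, nor did Actg2 (0.52, 95% interval -0.29 to 1.32) at E18.5. Tagln had 0.39 at E14.5 and 0.14 at E18.5, with intervals that held 0. These E14.5 calls moved with the setting. Acta2 and Actg2 were called by edgeR's exact test, by DESeq2, with no low-count filter, with the 12 sorted Six2 libraries in 1 fit, without T1 replicate 2 and with the replicate number as a block, and Actg2 also without WT replicate 3. Myh11 was called with the replicate block only. The count at E14.5, 5 as given, was thus 7 without T1 replicate 2 and 8 with the block, and it was 3 without T1 replicate 1, T1 replicate 3 or WT replicate 2, each of which lost Cnn1 and Pdgfrb.

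Des again went against the group. It fell from 214, 216 and 174 CPM to 131, 115 and 120 CPM at E14.5 (log2 -0.77 ± 0.09) and from 55.2, 52.2 and 61.1 CPM to 24.5, 28.7 and 26.8 CPM at E18.5 (log2 -1.17 ± 0.09, adjusted p = 6.3e-07). The genotypes did not overlap at either stage.

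Stromal markers moved with these results. Their sum over 8 genes was 540 to 725 CPM in WT and 1101 to 2280 CPM in T1 cells at E14.5, and 648 to 964 CPM in WT and 1020 to 1177 CPM in T1 cells at E18.5, with 6 genes higher and 1 lower at E14.5 and 5 higher and 2 lower at E18.5. Col1a1, a fibrillar collagen chain, went from 79.6 to 152 CPM up to 345 to 777 CPM at E14.5, whereas Foxd1, which podocytes also express, went from 137 to 162 CPM down to 63.3 to 100 CPM. Red cell transcripts summed to 95.4 to 201 CPM in WT and 1549 to 2283 CPM in T1 cells at E18.5, and nephron markers to 1870 to 2273 CPM and 565 to 616 CPM. The 6 macrophage markers summed to 15.6 to 21.3 CPM in WT and 52.5 to 66.3 CPM in T1 cells at E18.5, where 5 of 6 were higher, and to 7.75 to 84.8 CPM and 35.2 to 76.4 CPM at E14.5, where none was called. The part of any of these shifts in the higher mural genes was not tested.

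Other mural genes went with them. At E14.5, 5 of 11 pericyte genes rose and 1 fell, led by Kcnj8 (2.28) and Ndufa4l2, a mitochondrial subunit typical of pericytes (2.27), with Ednra, an endothelin receptor, at 0.85 and Vtn, vitronectin, lower (-1.86). At E18.5, 4 of 11 rose and 1 fell, with Ndufa4l2 (1.31), Cox4i2, a cytochrome oxidase subunit (1.14), and Abcc9 (1.09) higher and Anpep (-1.90) lower. Of 18 contractile partners 4 rose at E14.5 and 6 at E18.5 and none fell, among them Mylk, myosin light chain kinase (1.38 and 1.39), Myl9, a myosin light chain (0.67 and 0.95), Hspb6 (0.83 at E14.5) and Synpo2 (1.69 at E18.5). Of 16 regulators 5 rose and 1 fell at E14.5 and 4 rose and 1 fell at E18.5, led by Tbx18, a T-box factor of ureteral mesenchyme (1.99 and 2.90), and Gata6 (2.06 at E14.5), with Tcf21 lower at E18.5 (-0.93).

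Of 6 mesangial and juxtaglomerular genes, Agtr1a, an angiotensin receptor, rose (2.21) and Itga8, an integrin chain of nephron and mesangial progenitors, fell (-1.06) at E14.5, and Ren1 (-2.13) and Itga8 (-0.97) fell at E18.5. Of the PDGF ligands Pdgfd rose at E14.5 (0.64) and Pdgfb fell at E18.5 (-0.79). The list medians at E14.5 and E18.5 were 0.77 and 0.66 for pericyte genes, 0.16 and 0.38 for contractile partners, 0.40 and 0.28 for regulators, 0.34 and -0.42 for mesangial and juxtaglomerular genes, and 0.10 and -0.13 for ligands.

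**Figure D3:**
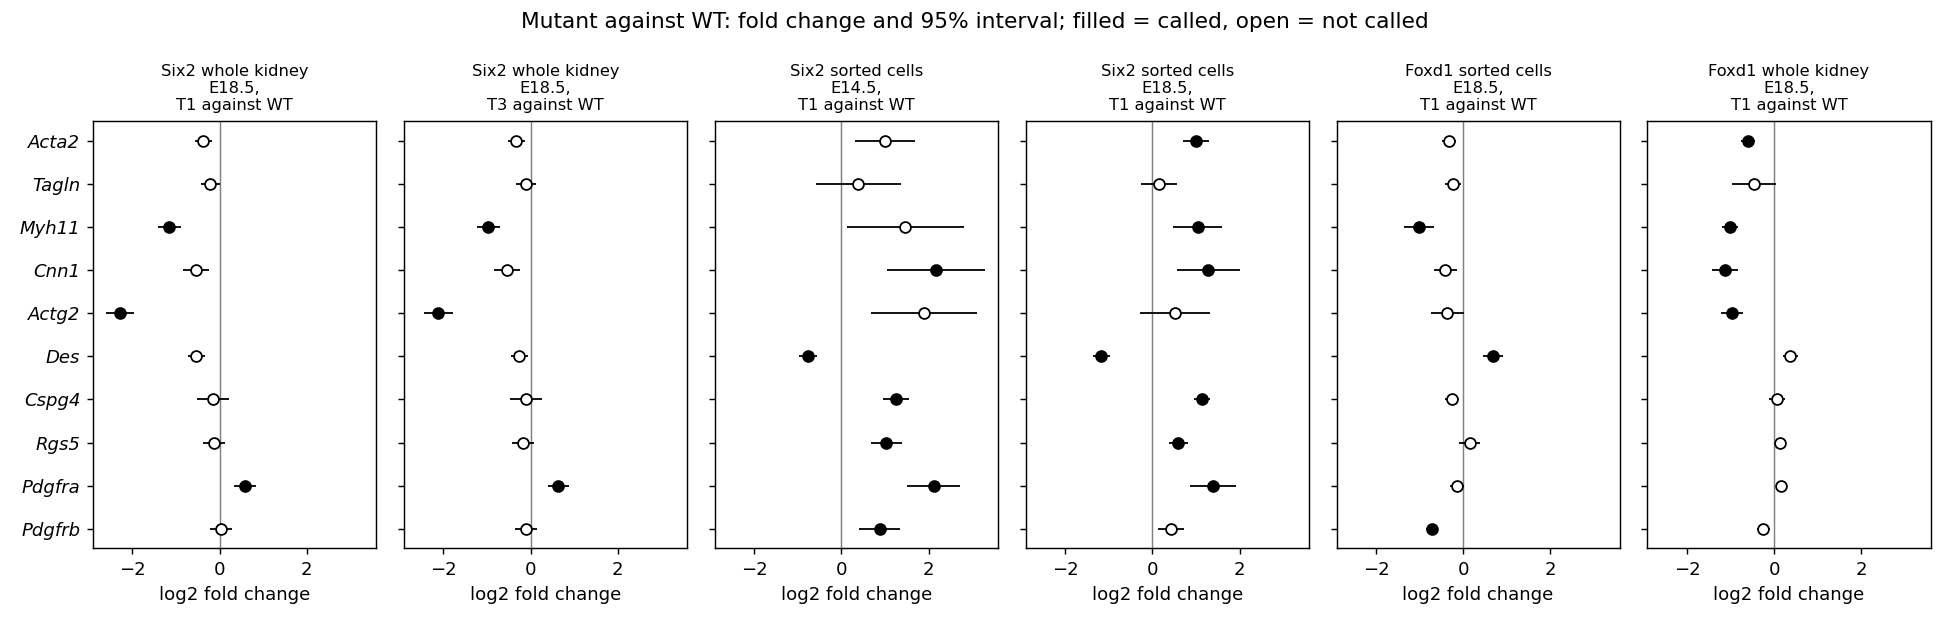
Log2 fold change of each gene, mutant against ENL WT, with its 95% interval, in 6 comparisons, with called genes filled. Myh11 is below 0 in whole kidneys and sorted Foxd1 cells and above 0 in sorted Six2 cells, where intervals are widest at E14.5, and Des lies opposite to the contractile genes in the sorted cells of either lineage.

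Between E14.5 and E18.5 the listed genes changed in wildtype Six2-lineage cells too. By the stricter rule of the lineage comparison 6 of 10 were higher at E18.5 and 1 lower, where 24.8% of all genes tested were called higher and 20.6% lower. Acta2 went from 3.23, 3.32 and 4.29 CPM to 41.5, 39.7 and 26.7 CPM, a log2 fold change of 3.45 ± 0.28. Cnn1 (4.02), Tagln (3.70), Myh11 (3.12), Rgs5 (2.07) and Cspg4 (1.33) also rose, and Des fell by 1.71. Pdgfrb (0.98, called under 9 of the alternatives), Pdgfra (0.69) and Actg2 (1.25) did not meet the rule. The median of the 10 was 1.70, beside 0.02 for all genes tested. Of the lists, 10 of 18 contractile partners rose and 2 fell, 4 of 11 pericyte genes rose and 1 fell, 7 of 16 regulators rose and 5 fell, 2 of 6 mesangial and juxtaglomerular genes rose, and 1 of 4 ligands, Pdgfb, rose (5.85). Their medians were 1.14, 0.40, 0.24, 0.10 and 0.56 in that order. The E14.5 cells were freed with trypsin and the E18.5 cells with collagenase, and mitochondrial transcripts were 0.60% to 0.69% of counts at E14.5 and 4.77% to 7.59% at E18.5, so stage and preparation cannot be told apart.

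The T1 effect itself was not shown to differ between the stages. In the test of that difference none of the 10 genes was called, where 3.94% of all genes tested were called higher and 4.22% lower (edgeR quasi-likelihood test, adjusted p under 0.05). An unadjusted p under 0.05 was reached by 2 of them, Des and Rgs5. Des had the smallest adjusted p among them (0.092, difference -0.39, 95% interval -0.68 to -0.11), and the interval for Cspg4 was -0.46 to 0.27. Apart from Cspg4, the interval of every listed gene was wide enough to hold a difference of more than 1.5-fold. Among these were Acta2 (-0.77 to 0.80), Myh11 (-1.87 to 1.03), Actg2 (-2.85 to 0.13), Cnn1 (-2.26 to 0.51) and Pdgfra (-1.63 to 0.22). DESeq2, and the quasi-likelihood test without a filter on low counts, each called 1 gene, Des, and Rgs5 was called without E14.5 WT replicate 3. The median of the 10 was -0.42, beside 0.02 for all genes tested. Of the lists, 3 of 18 contractile partners were higher, 1 of 11 pericyte genes higher and 2 lower, 3 of 16 regulators higher and 2 lower, and 2 of 6 mesangial and juxtaglomerular genes and 1 of 4 ligands lower, with medians of 0.12, 0.04, 0.02, -0.29 and -0.05.

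The T1 effect differed between the sorted Foxd1 and Six2 cells for most of these genes. Lineage, Cre allele, read length, library depth and count table coincide here too and cannot be told apart. In sorted E18.5 cells the difference of the T1 effects, Foxd1 minus Six2, was called for 7 of 10 genes, 6 lower and 1 higher, where 7.63% of all genes tested were called lower and 8.25% higher. The differences on the log2 scale were -2.07 ± 0.34 for Myh11, -1.71 ± 0.38 for Cnn1, -1.55 ± 0.26 for Pdgfra, -1.42 ± 0.12 for Cspg4, -1.35 ± 0.17 for Acta2 and -1.16 ± 0.15 for Pdgfrb. Des differed by 1.83 ± 0.15, falling in the Six2 lineage and rising in the Foxd1 lineage. Rgs5 (-0.47, adjusted p = 0.0643), Actg2 (-0.89, adjusted p = 0.113) and Tagln (-0.39, adjusted p = 0.181) were not called, and the median of the 10 was -1.26, beside -0.01 for all genes tested. Of the lists, 6 of 18 contractile partners, 6 of 12 pericyte genes, 8 of 16 regulators and 1 of 6 mesangial and juxtaglomerular genes (Akr1b7) were called lower, and 2 pericyte genes (Mcam and Anpep) and 1 ligand (Pdgfb) were called higher, with medians of -0.25, -0.76, -0.52, -0.41 and, for ligands, -0.16. The stromal sum, higher in T1 than in WT among sorted Six2 cells, was 7974 to 11210 CPM in WT and 8808 to 10160 CPM in T1 among sorted Foxd1 cells.

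**Figure D4:**
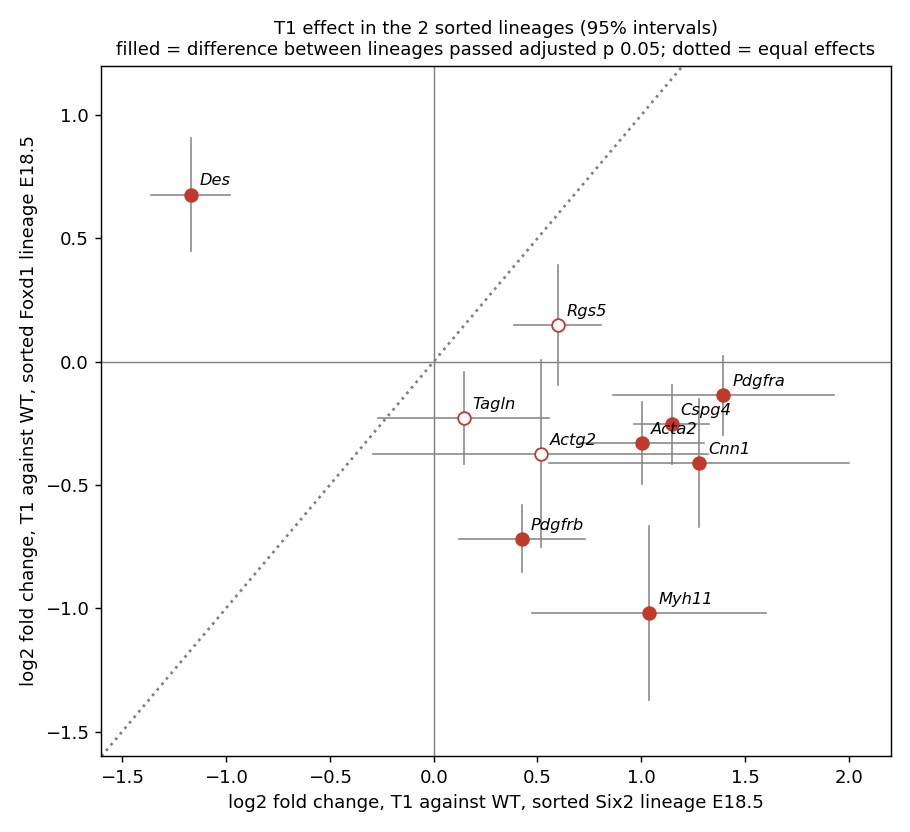
Log2 fold change of T1 against WT in sorted Six2-lineage cells (horizontal) and sorted Foxd1-lineage cells (vertical) at E18.5, with 95% intervals, 1 point a gene. Of the 10 genes, 7 are filled because the difference between lineages was called, with Des alone at the upper left (-1.17 and 0.68) and Myh11 lowest at the right (1.04 and -1.02).

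In whole kidneys the T1 effect differed between the drivers for fewer of the genes, and lineage, Cre allele and read length again coincide. The difference of the T1 effects, Foxd1 minus Six2, was called higher for 2 genes and lower for 1, where 4.82% of all genes tested were called higher and 3.55% lower. It was 1.29 ± 0.19 for Actg2, which was lower in both mutants but by more with the Six2 driver, 0.89 ± 0.13 for Des and -0.44 ± 0.13 for Pdgfra (adjusted p = 0.0431). The Pdgfra call was lost in each of 8 fits that left out 1 library. For Myh11 the difference was 0.13 (95% interval -0.25 to 0.50), and for Acta2 it was -0.24 (-0.53 to 0.05). The median of the 10 was -0.06, beside 0.01 for all genes tested. Of the lists, 1 of 18 contractile partners (Mylk), 4 of 13 pericyte genes, 4 of 16 regulators, 2 of 6 mesangial and juxtaglomerular genes and 2 of 4 ligands were lower, and 1 pericyte gene (Anpep), 1 regulator (Foxc1) and 1 ligand (Pdgfc) were higher, with medians of -0.07, -0.19, -0.13, -0.21 and -0.31.

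The balance of the 2 PDGF receptors was read inside each library, where scaling does not enter. The ratio of Pdgfra to Pdgfrb counts was 0.655, 0.717, 0.787 and 0.653 in sorted Foxd1-ENL WT cells and 1.12, 1.08, 0.975 and 1.02 in Foxd1-ENL T1 cells. It was 1.18, 1.15 and 1.23 in Foxd1-ENL WT whole kidneys and 1.73, 1.56 and 1.44 in Foxd1-ENL T1 whole kidneys. It was 1.91 and 1.83 in Six2-ENL WT whole kidneys, 2.67 and 2.80 in T1 and 3.12 and 3.16 in T3. The mutants were above the controls in each of these sets. In sorted Six2 cells it was 0.445 to 0.961 in WT and 1.17 to 1.62 in T1 at E14.5, and 0.315 to 0.674 in WT and 0.968 to 1.08 in T1 at E18.5, again with no overlap.

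The tests could not settle these ratios, because with so few libraries no outcome over 12 tests could reach an adjusted p under 0.05. The mean log2 ratio differed by 0.58 between T1 and WT in sorted Foxd1 cells, with an exact two-sided permutation p of 0.0286, the smallest that 4 against 4 libraries allow, and a Benjamini-Hochberg adjusted p of 0.133 over 12 tests. It differed by 1.18 and 1.06 in sorted Six2 cells at E14.5 and E18.5 and by 0.41 in Foxd1 whole kidneys, each with an exact p of 0.1, the smallest for 3 against 3. Acta2 to Pdgfrb differed by 0.38 in sorted Foxd1 cells (exact p = 0.0286), 0.57 in sorted Six2 cells at E18.5 and -0.34 in Foxd1 whole kidneys (exact p = 0.1 for both), and 0.0005 at E14.5 (exact p = 1.0). Myh11 to Acta2 differed by -0.63 in sorted Foxd1 cells (exact p = 0.0571) and -0.42 in Foxd1 whole kidneys (exact p = 0.1), with adjusted p-values of 0.133 for both. Its log2 ratios overlapped between genotypes in sorted Foxd1 cells (-5.21 to -4.31 in WT and -5.43 to -5.14 in T1) and did not overlap in Foxd1 whole kidneys (-2.35 to -2.14 in WT and -2.86 to -2.58 in T1). In sorted Six2 cells it differed by 0.49 at E14.5 (exact p = 0.5) and 0.13 at E18.5 (exact p = 0.7), inside the spread between libraries.

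**Figure D5:**
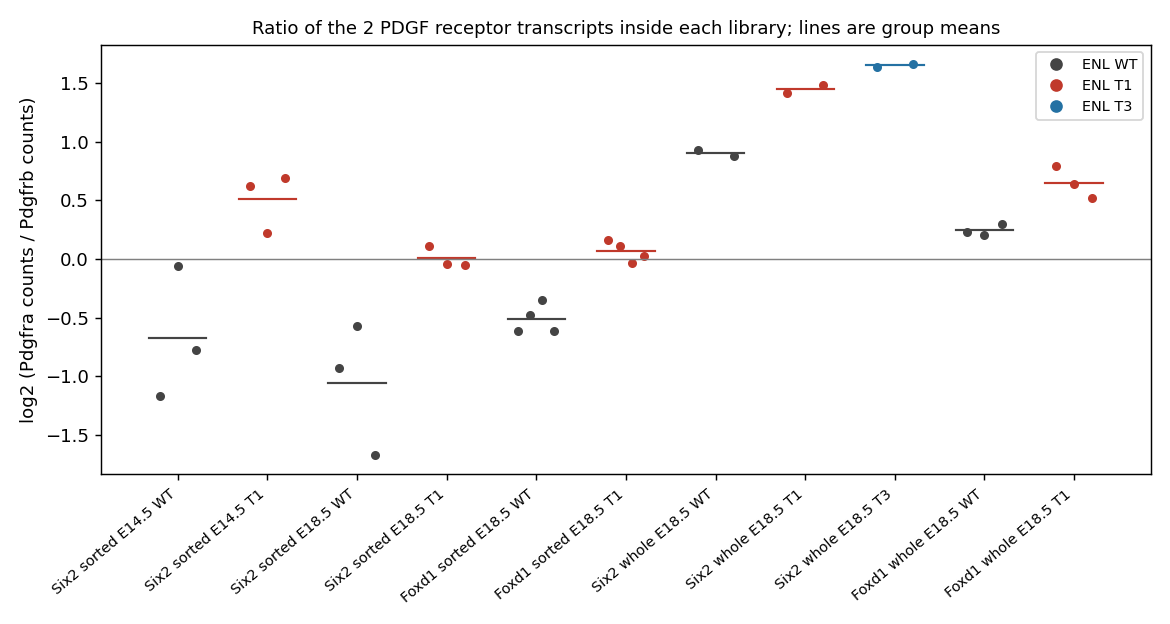
Log2 ratio of Pdgfra to Pdgfrb counts in each of the 32 libraries, each point 1 library and each line a group mean. In each lineage, stage and material the mutant libraries lie above their ENL WT controls, for example at -0.04 to 0.16 against -0.62 to -0.35 in sorted Foxd1 cells.

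Over the means of the 11 groups, the members followed each other closely apart from Des and Cspg4, with Tagln left out because its levels are not comparable across tables. Pearson's r of log2 CPM was 0.97 between Acta2 and Cnn1, 0.98 between Myh11 and Rgs5, 0.96 between Acta2 and Pdgfrb and 0.91 between Pdgfra and Pdgfrb. Des ran against the other 8 genes compared, from -0.53 with Actg2 to -0.85 with Myh11. Among 16429 other genes, those most like Myh11 were Stard13 (0.989), Itgb3 (0.988), Sp100 (0.984), Lgi2 (0.984) and Adcy5 (0.984), and those most like Pdgfrb were Sh3d21 (0.991), Rnase4 (0.991), Cyb5d2 (0.990), Ifi35 (0.990) and Gm45187 (0.989). The 11 points share controls, kits and runs, and these values describe the pattern over groups only.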

How the data were processed

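The authors prepared polyA RNA with a stranded kit (whole kidneys) or a low-input full-length kit (sorted cells), sequenced 2 × 50 bases (Six2) or 2 × 75 bases (Foxd1), aligned with HISAT2 to mm10 and used HTSeq, ignoring strand, for gene totals, so antisense genes cannot be told apart. The deposited values are raw gene counts, not normalized. The annotation release is not given in the sources used here, and names and places are from GENCODE vM21. From these counts, edgeR 4.0.16 (R 4.3.3) was run with TMM scaling, filterByExpr (minimum count 10, total 15), group means and quasi-likelihood tests, adjusted by Benjamini-Hochberg over all genes tested. SE and 95% intervals come from the F statistic. CPM is a gene's count over the library's gene total, scaled to a fixed sum. Scripts were tested on simulated data. Ratios used counts plus 0.5 and exact permutation tests (scipy 1.17.1). Members and lists were chosen with earlier results of these data known. All 10 members passed the low-count filter in all comparisons. Genes named from a list are at most the 4 with the largest change among those called. Likeness used genes with a mean of at least 1 CPM. Lists are described by counts and medians. Alternatives were DESeq2 1.42.0, edgeR's exact test, other scalings, filters and thresholds, each library left out and a replicate block. Replicates are separate libraries, and the tests judge a difference against the spread between libraries. The library labels do not say whether a library came from a single embryo or from several.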

Additional observations from a re-analysis of the deposited data

Results flagged for a closer look

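Values that stood apart were sought among the listed genes and the 3 ratios in the groups of 4 libraries (26 checks, of which chance flags about 1 in 20), and differences between lineages were taken from the tests of the difference. Rgs5 in Foxd1-ENL T1 sorted replicate 1, at 256.8 CPM, lay far above the other 3 libraries of its group (189.4 to 194.5 CPM), and the highest Rgs5 of the sorted Foxd1-ENL WT libraries, 240.9 CPM, was also replicate 1.

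The T1 effect in sorted E18.5 cells, Foxd1 minus Six2, differed for Acta2 (-1.35), Myh11 (-2.07), Cnn1 (-1.71), Cspg4 (-1.42), Pdgfra (-1.55) and Pdgfrb (-1.16) and, with the other sign, for Des (1.83), all on the log2 scale. In whole kidneys it differed for Actg2 (1.29), Des (0.89) and Pdgfra (-0.44).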

How the results depend on the processing

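Under the alternatives, 344 counts of called genes stayed within 1.5 times and 32 did not. Without a fold threshold, 5 genes were called lower in Six2-ENL T1 whole kidneys, 4 in Six2-ENL T3, 5 in sorted Foxd1 cells, and 2 higher in Foxd1 whole kidneys. With a 2-fold threshold the higher calls were 0 in both Six2 whole-kidney mutants and in sorted Foxd1 cells, and the lower calls were 1 in Six2-ENL T3, 0 in sorted Six2 cells at E14.5, 1 in sorted Foxd1 cells and 2 in Foxd1 whole kidneys. DESeq2 and no low-count filter each gave 1 lower call in the stage difference, and no filter gave 3 lower calls in the whole-kidney lineage difference. Leaving out each library gave 0 to 1 higher calls in Six2-ENL T1, Six2-ENL T3 and sorted Foxd1 cells, 3 to 7 at E14.5, and 0 to 1 and 0 to 2 lower calls in the stage and whole-kidney differences. The replicate block gave 8 higher calls at E14.5 and 7 lower calls in the sorted lineage difference, in place of 5 and 6, and left the other counts as they were. Same-numbered libraries correlated from -0.08 to 0.14 after group means were removed. With so few libraries in a group, these values cannot show whether a number stands for a shared litter or preparation. The block could not be fitted for the stage and WT lineage comparisons, in which the blocks lie inside the groups compared.

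Values that changed sign were called in neither setting. Without each library in turn, Cspg4 ranged from -0.39 to 0.15 (Six2-ENL T1), -0.34 to 0.19 (T3), -0.0214 to 0.16 (Foxd1 whole), -0.24 to 0.0291 (stage) and -0.11 to 0.47 (whole-kidney lineages), Pdgfrb from -0.12 to 0.24 (T1) and -0.27 to 0.0876 (T3), Tagln from -0.18 to 0.0023 (T3), -0.0404 to 0.34 (sorted Six2 E18.5) and -0.48 to 0.0591 (stage), Myh11 from -0.11 to 0.34 (whole-kidney lineages) and Acta2 from -0.21 to 0.49 (stage). The last was -0.0153 with DESeq2, -0.0174 with RLE factors and -0.0348 with no filter. The Acta2 to Pdgfrb ratio at E14.5 ranged from -0.25 to 0.17 (-4.2e-05 with counts plus 1), and Myh11 to Acta2 from -0.0335 to 0.88 at E14.5 and -0.06 to 0.37 at E18.5. The cause was not tested.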
